A study of Mus musculus with 10 samples.

Results

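Long-chain fatty acids are handled in the gut epithelium by surface carriers and by small cytosolic binding proteins. A lipase at the capillary wall frees them from circulating lipoproteins. The report covers 10 such genes: Fabp1, Fabp2, Fabp4, Fabp5 and Fabp6, which encode fatty acid binding proteins, Cd36, Slc27a1, Slc27a2 and Slc27a4, which encode surface or acyl-CoA-forming carriers, and Lpl, which encodes lipoprotein lipase. They were chosen by name, as 10 of the 18820 genes that carried a single platform symbol, and each was read from 1 probe set (for Fabp5, the one of 3 with the highest mean over all arrays). Their RNA was measured on 10 Affymetrix whole-transcript arrays of mouse colonic organoids (epithelium of colon crypts cultured in Matrigel), and all levels below are deposited RMA values on the log2 scale. The donors were all male, with a C57BL/6J background. Every culture grew in the same medium with Wnt, Noggin, R-spondin, EGF, nicotinamide and additives that the sources name A83 and p38. Knockout mice (PPARγ KO) were homozygous for a Pparg gene with loxP sites around exons 1 and 2 and carried Cre under the villin promoter, which is active in the intestinal epithelium, so the deletion was limited to those cells. Wild-type (WT) mice were their littermates, and no age was given in the sources used here. Organoids received 1 µM rosiglitazone, a drug that activates PPARγ, or 0.1% DMSO as vehicle for 24 h. The 4 groups were wild-type vehicle (n = 2, mice 42 and 47), wild-type rosiglitazone (n = 3, replicates 1, 2 and 3 from mice 48, 42 and 47), knockout vehicle (n = 2, replicates 1 and 2 from mice 46 and 44) and knockout rosiglitazone (n = 3, replicates 1, 2 and 3 from mice 46, 45 and 44). The same mice thus appear under both treatments, 6 mice in all, and 4 of them gave arrays of both.

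Fatty acid binding proteins carry fatty acids and other lipids through the cytosol, and members of the family differ by tissue: Fabp1 and Fabp2 are the liver and intestinal types of small-bowel enterocytes, Fabp4 is the adipocyte and macrophage type, Fabp5 the epidermal type, and Fabp6 binds bile acids in the ileum. Cd36 binds long-chain fatty acids at the cell surface, the Slc27a family couples their uptake to activation with coenzyme A, and Lpl releases them from circulating lipoproteins at the capillary wall. Several of these genes are textbook targets of PPAR receptors, which bind DNA as a partner of RXR at a direct repeat of the half-site AGGTCA with 1 spacer base.

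The windows just upstream of the members' start sites are shown because the drug tested here acts through that receptor family. RefSeq promoters of GRCm38.p6 were available for 7 of the 10 members (9 start sites, 3 of them of Slc27a1), and the 250 bases before each start were searched on both strands. One motif was this direct repeat, AGGTCA then 1 base of any kind then AGGTCA. The other was the inverted repeat bound by the bile acid receptor FXR, AGGTCA then 1 base of any kind then TGACCT, which reads the same on both strands. Each was allowed up to 2 mismatches in its 12 fixed bases. The following windows are printed 5′ to 3′ on the gene's strand, with matches in capitals, for chr6:71199629-71199878 (plus strand, Fabp1), chr5:17835897-17836146 (minus strand, Cd36), chr11:43601563-43601812 (minus strand, Fabp6) and chr2:29802384-29802633 (plus strand, Slc27a4). The first 3 are the members with a match, and Slc27a4 is shown as a member with a bright signal and no match.

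Fabp1: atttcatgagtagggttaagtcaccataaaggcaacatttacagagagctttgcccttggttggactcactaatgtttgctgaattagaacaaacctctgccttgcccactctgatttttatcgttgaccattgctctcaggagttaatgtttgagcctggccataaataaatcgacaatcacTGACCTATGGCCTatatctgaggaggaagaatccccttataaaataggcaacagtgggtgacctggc

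Cd36: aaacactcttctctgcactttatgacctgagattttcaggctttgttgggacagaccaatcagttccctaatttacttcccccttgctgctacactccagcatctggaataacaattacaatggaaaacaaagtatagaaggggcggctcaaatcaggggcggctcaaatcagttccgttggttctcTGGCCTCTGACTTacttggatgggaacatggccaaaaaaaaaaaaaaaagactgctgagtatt

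Fabp6: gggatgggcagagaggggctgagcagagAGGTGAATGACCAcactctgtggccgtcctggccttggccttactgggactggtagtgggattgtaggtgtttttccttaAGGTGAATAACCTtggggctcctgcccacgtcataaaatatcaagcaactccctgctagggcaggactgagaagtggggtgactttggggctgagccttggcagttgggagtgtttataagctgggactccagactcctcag

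Slc27a4: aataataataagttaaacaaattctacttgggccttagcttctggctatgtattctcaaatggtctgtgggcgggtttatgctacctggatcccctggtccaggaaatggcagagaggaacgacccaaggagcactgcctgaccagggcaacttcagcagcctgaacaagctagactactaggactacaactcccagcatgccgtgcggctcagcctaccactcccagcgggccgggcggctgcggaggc

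Fabp1 held a direct-repeat match, read on the opposite strand, with 1 mismatch, at 67 to 55 bases before the start, and Cd36 one with 2 mismatches at 63 to 51 bases before the start. A direct repeat with up to 1 mismatch occurred in 0.484% of the 32851 promoters in the table, and one with up to 2 mismatches in 3.24%. Fabp6 held 2 inverted-repeat matches of 2 mismatches each, at 222 to 210 and 142 to 130 bases before the start, a kind found in 0.959% of promoters. The direct repeat came no closer than 3 mismatches in Fabp2 and Slc27a2, 4 in Slc27a1 and 5 in Slc27a4. A match is a description of these letters only, and no binding was measured.

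Across the 10 arrays the median of the 23099 probe sets listed in the platform annotation lay between 4.38 and 4.65. Mouse 46, labelled knockout, stood away from the rest: its arrays scored -31.75 and -39.3 on the first principal component (27.4% of the variance), where the other 8 scored -4.1 to 19.6. Where leaving out mouse 46 turned the sign of a printed member difference on the probe set used, the value without it is given too. Pparg itself, read by 1 probe set, lay between 7.59 and 8.41 on wild-type arrays and between 7.37 and 8.78 on arrays labelled knockout. Where its probes lie relative to the floxed exons is not known here, so Pparg is no check of the deletion or of the labels, and each genotype direction below rests on the labels. Of 14 measured markers of colonic epithelium, 10 lay above the array median on all 10 arrays, among them Epcam, Krt8, Vil1, Cdx2 and Car1. Aqp8 lay below it on all, and Cdx1, Car4 and Slc26a3 lay above it on 5, 4 and 1 of the arrays. Of 8 endothelial markers 8 lay below the median on all arrays, as did 8 of 9 fibroblast and smooth muscle markers, 8 of 9 macrophage markers (Cd68 lay above) and 6 of 7 adipocyte markers (Cidec varied). Of 10 small intestinal enterocyte markers, 3 (Lct, Apoa4 and Gata4) lay below on all arrays and the other 7 varied between arrays.

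Fabp5, Slc27a1 and Slc27a4 lay above the array median on all 10 arrays, and the other 7 members lay below it on all 10. Slc27a1 stood at the 79.0 to 82.6 percentile of the listed probe sets on its array, Slc27a4 at the 75.6 to 82.1 and Fabp5 at the 51.2 to 70.5. The lower 7 stood between the 1.94 percentile (the lowest of Cd36) and the 40.7 (the highest of Fabp2). The small-bowel, adipocyte and ileal binding proteins, Cd36, Slc27a2 and Lpl were thus dim in these colonic organoids, and the bright members were the epidermal binding protein and a pair of Slc27a carriers. A dim reading is not an absent transcript, differences near the bottom of the scale may be compressed, and probe sets of different genes differ in brightness per molecule, so these ranks say where a reading sits on its array and do not order the genes' RNA.

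No member passed a test of drug or genotype. In wild-type organoids 0 of 10 members passed for rosiglitazone against vehicle, where 0% of the 23099 probe sets did. In knockout organoids 0 of 10 passed (0% of all), and for the difference between the responses 0 of 10 (0% of all). Between genotypes 0 of 10 passed in vehicle (0% of all), in rosiglitazone (0.0216% of all, 5 probe sets) and over the 3 and 3 mouse means (0.013%, 3 probe sets). Within the 4 mice with both treatments 0 of 10 passed (0% of all). The tests were two-sided limma fits with Benjamini-Hochberg adjustment over all listed probe sets at 0.05. At an unadjusted p under 0.05 the counts of members were 1, 0, 0, 0, 1, 1 and 2 in the order just given, against 0.991%, 3.06%, 2.32%, 5.69%, 4.81%, 3.6% and 5.49% of all probe sets. The members behind these counts were Fabp2 (wild-type drug response), Lpl (both genotype counts) and Fabp2 and Cd36 (within mice), and their values follow. The median member difference was 0.01 for the drug in wild type (all probe sets 0.01), 0.07 in knockout (-0.01), 0.10 between genotypes in vehicle (0.03) and 0.08 in rosiglitazone (0.00). In such bulk samples, fewer cells that express a gene and less RNA per cell cannot be told apart.

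Counts of members whose groups did not overlap were also set against all probe sets. For the drug in wild type 1 member lay higher (8.65% of all probe sets did) and 2 lower (6.78%), and in knockout 2 lay higher (5.81%) and 0 lower (7.93%). Between genotypes in vehicle 3 lay higher (23%) and 1 lower (16.1%), in rosiglitazone 1 higher (4.22%) and 0 lower (4.47%), and over mouse means 1 higher (4.07%) and 0 lower (4.23%). In the same direction in all 4 mice, 3 members lay higher with the drug (6.33%) and 2 lower (6.98%). With 10 members these counts are small, and each member behind them is named below.

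**Figure D1:**
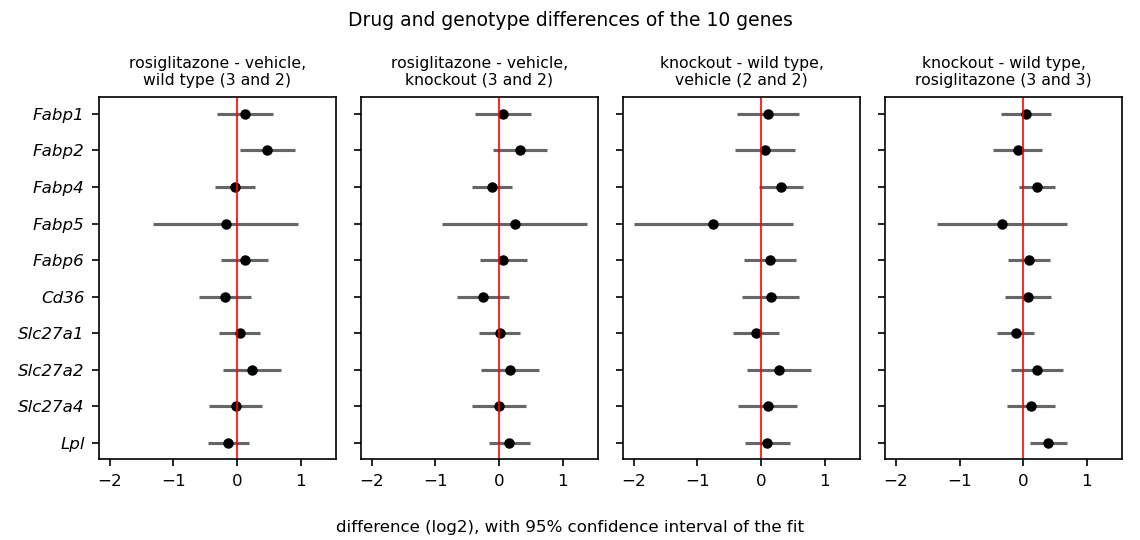
Differences on the log2 scale, with the 95% confidence interval of the limma fit, of the 10 genes for rosiglitazone minus vehicle in wild type and in knockout and for knockout minus wild type in vehicle and in rosiglitazone. The interval of Fabp2 in wild type (0.05 to 0.90) and of Lpl in rosiglitazone (0.11 to 0.69) lie above 0 before adjustment, and Fabp5 has the widest intervals.

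Among the binding proteins, Fabp2, the intestinal type, gave the largest drug difference. In wild type it read 2.56 and 2.29 with vehicle and 3.31, 2.65 and 2.75 with rosiglitazone. All 3 treated arrays lay above both vehicle arrays, as did 8.65% of all probe sets. The difference was 0.48 (SE 0.19, unadjusted p = 0.031, adjusted p = 1.00 by limma, n = 3 and 2). In knockout organoids Fabp2 read 2.59 and 2.39 with vehicle and 2.84, 2.83 and 2.78 with rosiglitazone, again without overlap (5.81% of all probe sets), and the difference was 0.33 (SE 0.19, adjusted p = 1.00 by limma, n = 3 and 2). The responses of the 2 genotypes differed by -0.15 (SE 0.27, 95% interval -0.76 to 0.45), which does not show that they were alike. Within mice Fabp2 was higher under rosiglitazone in 4 of 4, by 0.09 (mouse 42) and 0.46 (mouse 47) in wild type and by 0.39 (mouse 44) and 0.25 (mouse 46) in knockout. Among all probe sets 6.33% were higher in all 4 mice. The mean change was 0.30 (SE 0.09, unadjusted p = 0.012, adjusted p = 0.895 by limma, n = 4 mice). The replicate 1 array of wild-type rosiglitazone, from mouse 48, held the highest Fabp2 value (3.31), and that mouse had no vehicle array. Over mice 42 and 47 alone the wild-type difference was 0.28.

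The other dim binding proteins differed by at most 0.31 in any comparison, and none passed. Fabp1, the liver type, read between 2.17 and 2.82 on the 10 arrays, with group means of 2.32 (wild-type vehicle), 2.45 (wild-type rosiglitazone), 2.43 (knockout vehicle) and 2.50 (knockout rosiglitazone) and SDs of 0.08 to 0.36. Its drug differences were 0.12 (SE 0.20) in wild type and 0.07 (SE 0.20, or -0.12 without mouse 46) in knockout, and it was higher in 4 of 4 mice by 0.00 to 0.18, with a mean of 0.13 (SE 0.08, adjusted p = 0.908 by limma, n = 4 mice). Fabp6, the ileal bile acid binder, read between 1.85 and 2.40. It too was higher in 4 of 4 mice, by 0.05 to 0.23, with a mean of 0.14 (SE 0.08, adjusted p = 0.899 by limma, n = 4 mice). Fabp4, the adipocyte and macrophage type, read 2.12 and 2.25 in wild-type vehicle, 2.27, 2.15 and 2.05 in wild-type rosiglitazone, 2.48 and 2.51 in knockout vehicle and 2.35, 2.22 and 2.58 in knockout rosiglitazone. In vehicle the knockout arrays lay above the wild-type arrays without overlap, as did 23% of all probe sets, and the difference was 0.31 (SE 0.16, adjusted p = 0.855 by limma, n = 2 and 2). In rosiglitazone the groups overlapped and the difference was 0.22 (SE 0.13, adjusted p = 0.999 by limma, n = 3 and 3).

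Fabp5, the epidermal type and the binding protein with the bright signal, differed more between the knockout mice than between the 2 arrays of any mouse. Wild-type mice 42 and 47 were as close to each other as their own arrays. It read 6.33 and 6.32 in wild-type vehicle and 5.92, 6.27 and 6.25 in wild-type rosiglitazone. In knockout vehicle it read 5.12 (mouse 46) and 6.02 (mouse 44), and in knockout rosiglitazone 4.59 (mouse 46), 6.88 (mouse 45) and 5.98 (mouse 44). The lowest and the highest of all 10 values thus stood in the same group, knockout rosiglitazone. Its SD over the 10 arrays was 0.66, and 99.0% of the 8860 genes that lay above the median on all arrays had a smaller SD. Without the arrays of mouse 46 the SD was 0.30, and 91.4% had a smaller one. Means per mouse were 6.30 (mouse 42), 6.28 (mouse 47) and 5.92 (mouse 48) in wild type, and 6.00 (mouse 44), 6.88 (mouse 45) and 4.86 (mouse 46) in knockout. The order of the group means was wild-type vehicle (6.32, SD 0.01), wild-type rosiglitazone (6.15, SD 0.20), knockout rosiglitazone (5.82, SD 1.16) and knockout vehicle (5.57, SD 0.63). Neighbours in that order lay within 1 SD of the more variable group.

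The Fabp5 drug difference was -0.18 (SE 0.51, adjusted p = 1.00 by limma, n = 3 and 2) in wild type and 0.25 (SE 0.51, adjusted p = 1.00 by limma, n = 3 and 2) in knockout. In wild type all 3 treated arrays lay below both vehicle arrays, as did 6.78% of all probe sets. Within mice the probe set used was lower in 4 of 4 (6.98% of all probe sets were). It was lower by 0.04 to 0.07 in mice 42, 44 and 47 and by 0.54 in mouse 46. The mean was -0.17 (SE 0.11, adjusted p = 0.908 by limma, n = 4 mice). On probe set 10490838, by contrast, mouse 44 read 5.74 with vehicle and 5.95 with rosiglitazone, so 4 of 4 did not hold there. Mouse 45, with rosiglitazone only, held the highest value, and over mice 44 and 46 alone the knockout difference was -0.29. It was 0.41 without both arrays of mouse 46 and -0.20 without its vehicle array alone. In vehicle the knockout arrays lay below the wild-type arrays without overlap (16.1% of all probe sets), with a difference of -0.75 (SE 0.56, adjusted p = 0.867 by limma, n = 2 and 2), and of -0.30 without mouse 46. In rosiglitazone the difference was -0.33 (SE 0.46, adjusted p = 0.999 by limma, n = 3 and 3), and 0.29 without mouse 46. The sign of the genotype difference in rosiglitazone thus turned with that mouse. Over mouse means it was -0.25 (SE 0.43, adjusted p = 0.999 by limma, n = 3 and 3 mice) and 0.27 without mouse 46.

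**Figure D2:**
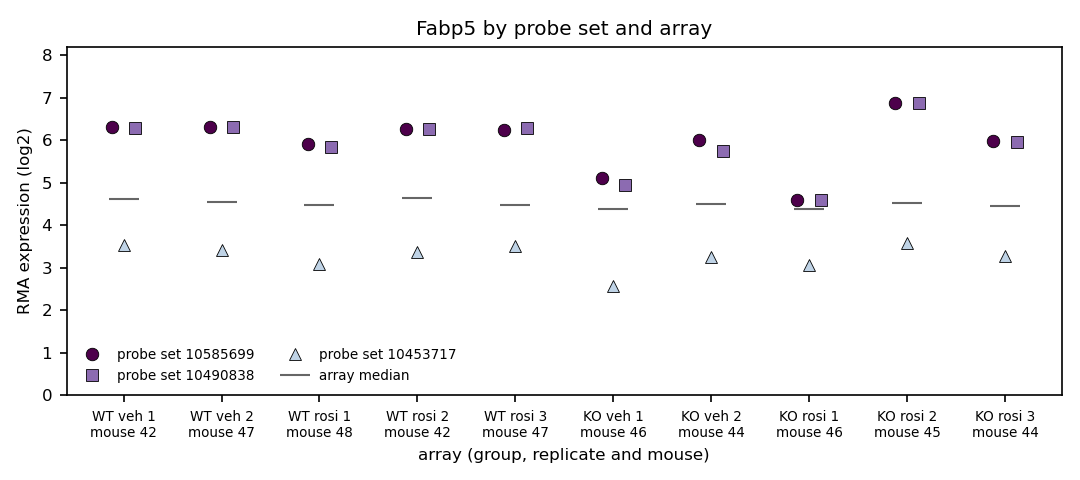
RMA expression on the log2 scale of the 3 Fabp5 probe sets on each of the 10 arrays, ordered by group and labelled by mouse, with the array median as a bar. Probe sets 10585699 (the one used) and 10490838 nearly coincide and dip in mouse 46, and the dim probe set 10453717 stays between 2.58 and 3.58.

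Fabp5 had 3 probe sets. Probe sets 10585699 and 10490838 differed by at most 0.27 on any array and correlated at r = 0.991 over the 10 arrays, while 10453717 was dim and correlated with them at 0.784 and 0.825. They disagreed on the small within-mouse change, at -0.17, -0.05 and 0.11 for 10585699, 10490838 and 10453717. The RefSeq table also lists a pseudogene, Fabp5l2, and near-identical copies could share signal, so the assignment of these readings to Fabp5 alone is uncertain. The genes whose array pattern was most like that of Fabp5, among the 8859 other genes above the median on all arrays, were Polr1e (r = 0.964), Noc2l (0.961) and Tifa (0.960), over 10 arrays of 6 mice. Without the arrays of mouse 46 these were 0.870, 0.811 and 0.863. Tifa, for example, read 6.62 and 6.59 in mouse 46 and 8.22 in mouse 45, where Fabp5 was lowest and highest. These arrays share mice, and the correlations are descriptions.

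Slc27a1, which couples fatty acid uptake to activation, was bright and varied little between arrays. It read 7.95 and 7.67 in wild-type vehicle, 7.85, 7.98 and 7.74 in wild-type rosiglitazone, 7.68 and 7.78 in knockout vehicle and 7.74, 7.89 and 7.59 in knockout rosiglitazone. The groups overlapped in each comparison, the SD over 10 arrays was 0.13, and 24.2% of the 8860 bright genes had a smaller one. Without mouse 46 the SD was 0.14 (36.0%). The drug differences were 0.04 (SE 0.15, 95% interval -0.28 to 0.37) in wild type and 0.01 (SE 0.15, or -0.04 without mouse 46) in knockout, and the genotype differences -0.08 (SE 0.16) in vehicle and -0.11 (SE 0.13) in rosiglitazone. The wild-type interval still allows a drug difference of up to 0.37. The genes most like it were Pskh1 (r = 0.959), Tnpo1 (0.935) and Usp19 (0.931), and without mouse 46 these were 0.967, 0.965 and 0.931.

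Slc27a4, the main fatty acid transport protein of the small-bowel brush border in textbooks, read 7.44 and 7.58 in wild-type vehicle, 7.70, 7.49 and 7.27 in wild-type rosiglitazone, 7.88 and 7.35 in knockout vehicle and 7.80, 7.56 and 7.48 in knockout rosiglitazone. The 2 arrays of mouse 46 were its highest, and all groups overlapped. The drug differences were -0.02 (SE 0.19, 95% interval -0.44 to 0.40) in wild type and 0.00 (SE 0.19) in knockout, and the genotype differences 0.10 (SE 0.21) in vehicle and 0.12 (SE 0.17) in rosiglitazone. Without mouse 46 the genotype difference in vehicle was -0.16 and the knockout drug difference 0.17, and without its vehicle array alone the latter was 0.26. Its SD over 10 arrays was 0.19 (60.2% of bright genes had a smaller one) and 0.14 without mouse 46 (34.9%). The genes most like it were Fkbp2 (r = 0.938), Nt5dc1 (0.938) and Ccm2 (0.925), at 0.843, 0.869 and 0.930 without mouse 46. Slc27a2, an acyl-CoA synthetase of very-long-chain fatty acids, was dim, between 1.98 and 2.79. In vehicle its knockout arrays (2.39 and 2.43) lay above the wild-type arrays (1.98 and 2.27), as did 23% of all probe sets. The difference was 0.28 (SE 0.23, adjusted p = 0.872 by limma, n = 2 and 2).

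Cd36, the surface receptor for long-chain fatty acids, read near the bottom of the scale, at the 1.94 to 21.4 percentile of its arrays. It read 2.00 and 2.06 in wild-type vehicle, 1.93, 1.61 and 2.01 in wild-type rosiglitazone, 2.46 and 1.90 in knockout vehicle and 2.03, 1.92 and 1.82 in knockout rosiglitazone. The groups overlapped in each comparison. Within mice it was lower under rosiglitazone in 4 of 4, by 0.40, 0.05, 0.09 and 0.43 in mice 42, 47, 44 and 46. The mean change was -0.24 (SE 0.10, unadjusted p = 0.040, adjusted p = 0.895 by limma, n = 4 mice), and 6.98% of all probe sets were lower in all 4 mice. The drug differences in the 4-group fit were -0.18 (SE 0.18) in wild type and -0.26 (SE 0.18) in knockout. The knockout value rested on the vehicle array of mouse 46 (2.46): it was 0.02 without that array and -0.03 without both arrays of the mouse. The genotype difference in vehicle was 0.15 (SE 0.20), and -0.13 without mouse 46.

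**Figure D3:**
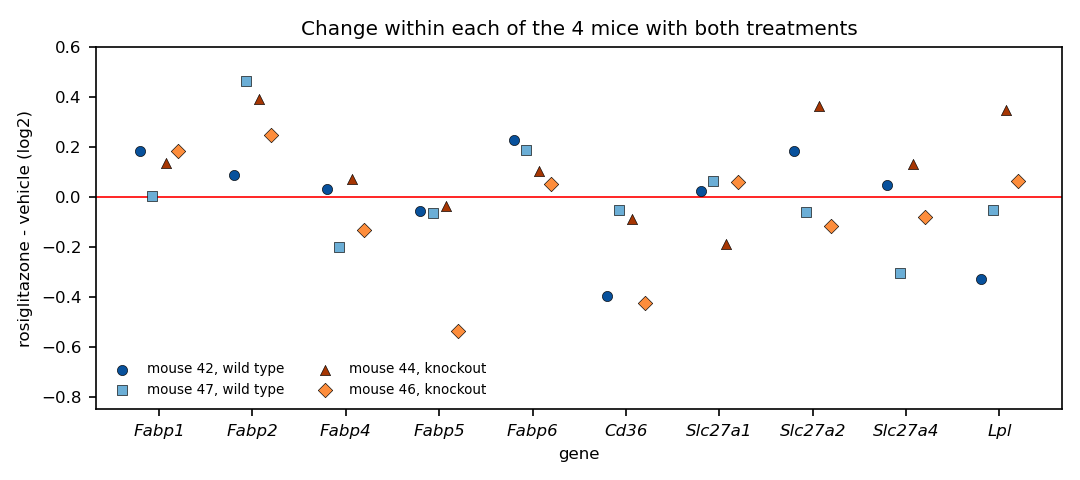
Rosiglitazone minus vehicle on the log2 scale within each of the 4 mice that gave both arrays, for the 10 genes, with blue for wild-type and orange for knockout mice. Fabp1, Fabp2 and Fabp6 are above 0 in all 4 mice (Fabp1 at 0.00 in mouse 47). Fabp5, on the probe set used, and Cd36 are below 0 in all 4 mice. Lpl is below 0 in both wild-type mice and above 0 in both knockout mice.

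Lpl, the lipase that frees fatty acids from lipoproteins, was the member with the largest genotype difference relative to its error in rosiglitazone and over mouse means, though not in vehicle. It read 2.50 and 2.52 in wild-type vehicle, 2.48, 2.17 and 2.47 in wild-type rosiglitazone, 2.61 and 2.61 in knockout vehicle and 2.67, 2.68 and 2.96 in knockout rosiglitazone. All of these readings were dim. In rosiglitazone the difference was 0.40 (SE 0.13, unadjusted p = 0.011, adjusted p = 0.932 by limma, n = 3 and 3), without overlap as for 4.22% of all probe sets. In vehicle it was 0.10 (SE 0.16, adjusted p = 0.928 by limma, n = 2 and 2), also without overlap, as for 23% of all probe sets. Over mouse means, which ran from 2.34 to 2.49 in wild type and from 2.64 to 2.78 in knockout, it was 0.27 (SE 0.11, unadjusted p = 0.043, adjusted p = 0.999 by limma, n = 3 and 3 mice). The mouse means did not overlap, as for 4.07% of all probe sets. The drug differences were -0.14 (SE 0.15) in wild type, with all treated arrays below both vehicle arrays (6.78% of all probe sets), and 0.16 (SE 0.15) in knockout, with all treated arrays above both (5.81%). The difference between them was 0.30 (SE 0.21, 95% interval -0.16 to 0.75, adjusted p = 1.00 by limma, n = 10 arrays).

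Lpl, Cd36 and Fabp4 are also known from adipocytes, macrophages and endothelium, so the markers of those cells are given beside them. The mean of the 8 endothelial markers lay between 2.63 and 2.84 in all groups and that of the 7 adipocyte markers between 2.65 and 3.05. The mean of the 9 macrophage markers lay between 2.93 and 3.13. Below the array median on all 10 arrays were 8 of the 8 endothelial, 6 of the 7 adipocyte and 8 of the 9 macrophage markers. The exceptions were Cidec, a lipid droplet protein of adipocytes, which read 3.68 to 6.55 and lay above the median on 8 arrays, and Cd68, a lysosomal protein of macrophages, which read 6.96 to 8.45 and lay above it on all 10. Both read lower on average in the knockout groups, but they do not stand for their lists. Cidec is also on the list of textbook PPAR targets below. Between genotypes in rosiglitazone 6 macrophage markers were higher in knockout and 3 lower. Of the adipocyte markers 4 were higher and 3 lower, and of the endothelial markers 5 were higher and 3 lower. In vehicle these counts were 4 and 5, 6 and 1, and 6 and 2. In rosiglitazone Cd68 differed by -0.90 (SE 0.21, adjusted p = 0.578 by limma, n = 3 and 3) and Cidec by -1.34 (SE 0.42, adjusted p = 0.915 by limma, n = 3 and 3). The mean of the 10 small intestinal enterocyte markers lay between 3.75 and 4.03 in wild-type rosiglitazone, between 3.78 and 3.84 in wild-type vehicle, between 3.68 and 3.74 in knockout vehicle and between 3.81 and 4.50 in knockout rosiglitazone. In knockout organoids 10 of 10 of these markers were higher on average in rosiglitazone than in vehicle (median 0.18, 0 passed), where 53.6% of all probe sets were lower. In wild type 5 were higher and 5 lower (median 0.01, 0 passed). Within the 4 mice with both treatments 9 were higher and 1 lower (median 0.08, 0 passed), where 51.1% of all probe sets were lower. Of these 9, 2 had an unadjusted p under 0.05 by limma, as did 5.49% of all probe sets. The part of these and the other markers in the member values was not tested.

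The other genes of fatty acid handling gave 0 calls in any comparison. Among 14 measured other intracellular lipid-binding proteins, Dbi, Scp2, Acbd3 and Acbd5 lay above the median on all arrays, and the family members Fabp3, Fabp7, Fabp9 and Fabp12 below it on all. For the drug in wild type 11 were higher and 3 lower (median 0.07), and in knockout 5 higher and 9 lower (median -0.05). Of all probe sets 45.7% were lower with the drug in wild type and 53.6% in knockout. Of 11 other transport proteins and acyl-CoA synthetases, Acsl4, Acsl5, Acss2 and Acsf2 lay above the median on all arrays while Slc27a3, Slc27a5 and Slc27a6 lay below it. For the drug 8 were higher and 3 lower in wild type (median 0.06), and 6 higher and 5 lower in knockout (median 0.01). Of 13 genes of surface uptake and sensing, 9 lay above the median on all arrays, among them the scavenger receptor Scarb1, the caveolins Cav1 and Cav2 and the lipid receptor Ffar4. With the drug 5 were higher and 8 lower in wild type (median -0.03), and 4 higher and 9 lower in knockout (median -0.14).

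The partners of Lpl and related lipases, taken as 1 list, were mixed in level. Of 15 measured, Lmf1 and Sel1l, which help fold Lpl, Lmf2 and the lipases Lipa, Lipe and Pnpla2 lay above the median on all arrays. Below it on all lay 7, among them Gpihbp1, the capillary anchor of Lpl, and its activator Apoc2. In wild type 11 were higher and 4 lower with the drug (median 0.16), and in knockout 8 higher and 7 lower (median 0.01). Within mice Angptl4, a secreted inhibitor of Lpl, differed by 0.95 (SE 0.39) and Gpihbp1 by -0.35 (SE 0.12, adjusted p = 0.895 by limma, n = 4 mice). Of 9 bile acid genes, the receptor Nr1h4, the exporter subunit Slc51b, Abcc3 and Fgf15 lay above the median on all arrays. The other 5 lay below it on all: the ileal uptake carrier Slc10a2, the other exporter subunit Slc51a, Nr0b2, Abcc2 and Gpbar1. Between genotypes in rosiglitazone Slc10a2 differed by 1.10 (SE 0.26, adjusted p = 0.553 by limma, n = 3 and 3) and Fgf15 by 1.14 (SE 0.44), and 0 of the 9 passed.

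Textbook PPAR targets that are no members are the nearest comparison for a drug response. Of 17 measured, 13 were higher and 4 lower with rosiglitazone in wild type (median 0.13, all probe sets 0.01), and 8 higher and 9 lower in knockout (median -0.05, all probe sets -0.01). Between genotypes in rosiglitazone 3 were higher and 14 lower (median -0.14), and 0 passed in any comparison. Within mice, a contrast that pools both genotypes and so does not show a wild-type response, 10 were higher and 7 lower (median 0.10). Of these, 5 higher and 1 lower had an unadjusted p under 0.05 by limma, as did 5.49% of all probe sets. The 3 with the smallest p there were all higher: Plin2, a lipid droplet coat protein, differed by 0.44 (SE 0.13), Cpt1a, which admits fatty acids to mitochondria, by 0.36 (SE 0.08) and Cidec, another droplet protein, by 0.95 (SE 0.23), each with adjusted p = 0.895 by limma and n = 4 mice. Over mouse means Plin2 was lower in knockout by 0.71 on the log2 scale (SE 0.15, adjusted p = 0.719 by limma, n = 3 and 3 mice). Of the 10 members, for the same drug contrast in wild type, 5 were higher and 5 lower.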

How the data were processed

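RNA from 10 organoid samples was hybridised to 1-colour Affymetrix arrays. The authors deposited 1 table of log2 values for 35556 probe sets, made with RMA per the submitters' processing notes. RMA corrects background, normalizes between arrays and summarises probes. The RMA version and chip definition are not known here. Arrays give no count depth, so their number limits the precision.

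Of the probe sets, 23099 were in the platform annotation (21218 with 1 gene symbol, 1881 with several) and were tested, and the other 12457 were left out. Of the single symbols, 21185 matched RefSeq (GRCm38.p6) by Entrez identifier. A gene with several probe sets was read from the one with the highest mean. Groups came from the labels, and p-values measure the spread between these arrays. Main fits used limma 3.58.1 in R 4.3.3 (group means over all 10 arrays, eBayes, residual degrees of freedom 6 and prior 4.39). These main fits treated the 10 arrays as independent and ignored the shared mice. Of the 8 arrays of mice with both treatments, 8 correlated best with the other array of their mouse. Other fits compared 3 and 3 mouse means, and treatments within the 4 mice with both, with the mouse as a fixed block. The labels give the donor mouse, which pairs the treatments: deviations correlated at 0.44 (mice 42 and 47) and 0.487 (mice 44 and 46). The mouse as a random block (statmod 1.5.0), scaling, filters, eBayes settings and left-out arrays were alternatives. The code was tested on simulated data. Named genes are the 10 members, Pparg, up to 3 genes of each list by p in each comparison, and the 3 genes most like each bright member. Marker and list genes named for their place against the array median are outside this rule. Members and lists were chosen with earlier results of these data known.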

Additional observations from a re-analysis of the deposited data

Results flagged for a closer look

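Lpl was picked out because its mean change within mice went opposite ways in the 2 genotypes: rosiglitazone minus vehicle was -0.33 (mouse 42) and -0.05 (mouse 47) in wild type and 0.35 (mouse 44) and 0.06 (mouse 46) in knockout. The mean change was 0.40 higher in knockout than in wild type. On all 10 arrays the difference between the responses was 0.30 (SE 0.21, adjusted p = 1.00 by limma), and with the mouse as a fixed block it was 0.40 (SE 0.19, adjusted p = 0.957 by limma), so it did not pass in either fit. All Lpl readings lay below the array median. The share of all probe sets with this pattern of signs was not counted, so the pick does not mark Lpl as unusual.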

How the results depend on the processing

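No member passed the threshold under any alternative run: of 1158 member values, 1050 kept their direction and 108 changed sign. Subtracting array medians, which raised each knockout difference by 0.13 in vehicle, turned Slc27a1 there from -0.08 to 0.05. Fabp5 in knockout ran from -0.29 with the mouse as a fixed replicate block to 0.86 without knockout rosiglitazone replicate 1, and Fabp5 between genotypes in rosiglitazone from -0.98 (4 mice with both treatments) to 0.29 without that replicate. The fixed replicate block gave 0.28 for Fabp2 in wild type, and Lpl in rosiglitazone ran from 0.30 to 0.50 (adjusted p from 0.483 to 1 by limma). Counts of all probe sets moved more. Between genotypes in vehicle (0 in the report, 1314 at an unadjusted p under 0.05 by limma) they were 1 with the mouse as a random replicate block, 2 with array medians subtracted, 1 after repeated quantile normalization, 1 with bright probe sets only, 2 with the eBayes trend, 2 with robust eBayes, 6 on the 4 mice, 4 on the 2 groups alone, and 0 to 6 leaving out 1 array. In rosiglitazone (5) they were 1 after repeated quantile normalization, 1 with all probe sets of the table, 8 with the trend, 1 with robust eBayes, 16 on the 4 mice, 1 on the 2 groups alone, 1 to 23 leaving out 1 array (23 without wild-type rosiglitazone replicate 1), and 1 without both arrays of mouse 46, an alternative chosen after seeing the data. Over mouse means (3, of which 2 higher) they were 8 with medians subtracted (2 higher), 1 with bright probe sets only, 0 with all probe sets of the table by limma (1270 at an unadjusted p under 0.05), 10 with the mouse as a random replicate block on 10 arrays (1 higher) and 1 to 6 leaving out 1 mouse. The drug in knockout gave 1 with the random replicate block. The number of arrays and the dim signal of 7 members limit what could be detected.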
